A study of Homo sapiens with 6 samples.

Results

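The genes described here are 10 genes of mitosis, measured in LNCaP prostate cancer cells with and without knockdown of MBD2: the kinase genes TTK, BUB1, AURKA, AURKB, PLK1 and NEK2, the checkpoint genes BUB1B and MAD2L1, the gene CDC20 of the complex that the checkpoint restrains, and the cyclin gene CCNB1. They were chosen by name, as array features annotated with exactly 1 gene symbol, and each of the 10 had 1 such feature among 16704 genes measured. LNCaP is an established androgen-responsive line. Its cells had been stably transfected with a vector that makes a short hairpin RNA, directed either against MBD2, a reader of methylated CpG dinucleotides, or at a scrambled sequence. All clones, controls included, carry that vector and were selected for neomycin resistance. Each group held 3 clones, and cytoplasmic RNA of every clone was put on 1 Affymetrix human Gene ST array, so the replicates are separate clones, and a clone's own features and the effect of the hairpin cannot be told apart within a single clone. Whether more than 1 hairpin sequence was used is not given in the sources used here.

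A dividing cell holds back the separation of its chromosomes until every kinetochore is attached to the spindle. At unattached kinetochores the kinase TTK, also called MPS1, recruits BUB1, and MAD2L1 and BUB1B then bind CDC20 and keep the anaphase-promoting complex from marking cyclin B1 and securin for destruction. PLK1, AURKA and NEK2 act at centrosomes and the spindle, and AURKB corrects wrong attachments as part of the chromosomal passenger complex. Transcripts of these genes are made mainly in G2 and M phase. In quiescent and early G1 cells the DREAM complex represses many such promoters through a short element, the cell cycle genes homology region (CHR). This element often lies near CCAAT boxes that bind NF-Y.

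The group means of all 10 genes were lower in the knockdown clones, and their promoters are described first. RefSeq promoter windows of assembly GRCh38.p14, from 250 bases before to 50 after a transcription start, were matched for 8 of the 10 genes. TTK and AURKA had no entry in that table. Each line below gives the 150 bases before the start, 5′ to 3′ on the strand of the gene, with capitals for a CHR form or a CCAAT box on either strand. CCNB1, PLK1, CDC20 and BUB1 are shown as promoters with both kinds of motif in the full window, BUB1B as one with a CHR form but no CCAAT box, and NEK2 as one with CCAAT boxes but no CHR form. The windows lie at chr5:69167000-69167149 (+ strand) for CCNB1, chr16:23678739-23678888 (+ strand) for PLK1, chr1:43358831-43358980 (+ strand) for CDC20, chr2:110678064-110678213 (- strand) for BUB1, chr15:40160919-40161068 (+ strand) for BUB1B and chr1:211675622-211675771 (- strand) for NEK2.
CCNB1: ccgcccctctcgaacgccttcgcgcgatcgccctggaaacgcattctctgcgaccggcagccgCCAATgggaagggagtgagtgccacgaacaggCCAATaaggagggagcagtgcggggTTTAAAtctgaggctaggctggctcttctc
PLK1: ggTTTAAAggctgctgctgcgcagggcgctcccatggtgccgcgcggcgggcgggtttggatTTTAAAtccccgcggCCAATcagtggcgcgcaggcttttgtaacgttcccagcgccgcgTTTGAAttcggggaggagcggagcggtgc
CDC20: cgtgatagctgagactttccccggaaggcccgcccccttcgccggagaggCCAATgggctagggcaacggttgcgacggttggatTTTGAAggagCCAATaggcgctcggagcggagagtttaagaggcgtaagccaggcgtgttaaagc
BUB1: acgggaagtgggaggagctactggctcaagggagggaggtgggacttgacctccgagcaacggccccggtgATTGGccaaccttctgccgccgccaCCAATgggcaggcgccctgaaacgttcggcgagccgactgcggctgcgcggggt
BUB1B: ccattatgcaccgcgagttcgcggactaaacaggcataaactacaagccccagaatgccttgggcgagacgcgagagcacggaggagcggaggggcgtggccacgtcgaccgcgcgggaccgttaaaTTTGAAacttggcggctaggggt
NEK2: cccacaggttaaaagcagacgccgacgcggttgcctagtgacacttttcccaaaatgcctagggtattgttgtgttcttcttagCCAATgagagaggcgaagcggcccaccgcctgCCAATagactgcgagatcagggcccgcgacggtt

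The CHR forms searched were TTTGAA, the variant TTCGAA and the variant TTTAAA, and the NF-Y motif was CCAAT, all on both strands. No match of a CHR form overlapped a CCAAT match in these genes. A CHR form occurred in 6 of the 8 genes, against 25.1% of 35116 promoter windows of the same length. TTTGAA was in 4 of the 8 genes (15.2% of all windows), TTCGAA in BUB1 alone (1.45%) and TTTAAA in CCNB1 and PLK1 (12.2%). CCAAT was in 7 of the 8 genes, all but BUB1B, against 34.6% of all windows, and 4 genes (CDC20, NEK2, BUB1 and CCNB1) held it at 2 places, where 10.8% of all windows have at least 2. Both kinds stood together in 5 genes, namely CDC20, BUB1, MAD2L1, CCNB1 and PLK1, against 9.7% of all windows. In CCNB1 the CCAAT boxes began 87 and 55 bases before the start and TTTAAA began 30 bases before it. In CDC20 TTTGAA began 65 bases before the start, between CCAAT boxes that began 100 and 55 bases before it. The TTCGAA of BUB1 and the TTTGAA of MAD2L1 began 2 and 25 bases into the transcript and are outside the printed stretch. The windows held between 22 and 33 CpG dinucleotides in 7 genes and 19 in the first of 2 AURKB entries. The median of all windows was 14 and their upper quartile 28, which BUB1 (31) and PLK1 (33) exceeded. These matches describe letters in a window and do not show binding or methylation, neither of which was measured on these arrays.

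**Figure D1:**
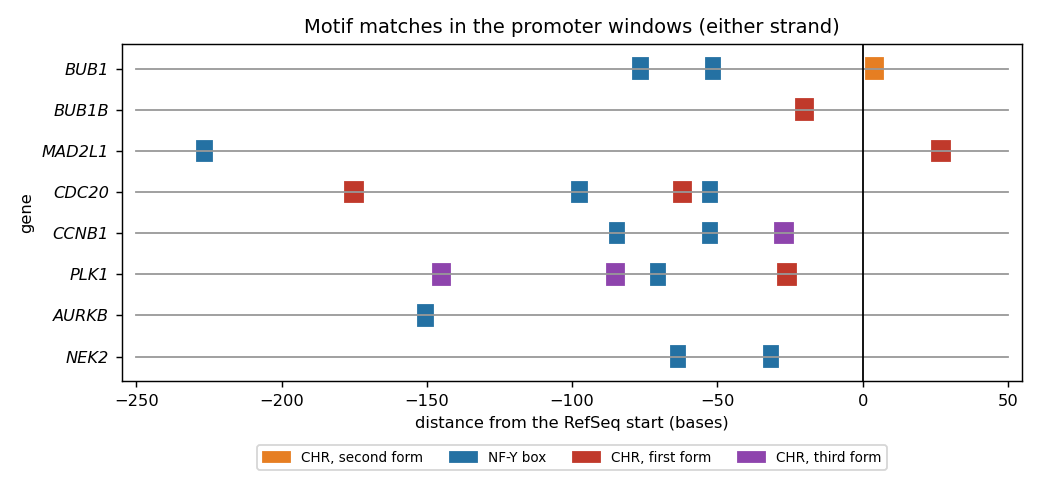
Positions of CHR forms and NF-Y (CCAAT) boxes in the promoter windows of the 8 matched genes. The horizontal axis is the distance in bases from the RefSeq start, each grey line is 1 window, and each block is 1 match on either strand. In all genes but AURKB the match nearest the start lies within 100 bases of it, and AURKB holds only 1 NF-Y box.

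MBD2 itself stood at 8.73, 9.24 and 9.20 in control clones 1, 2 and 3 and at 7.68, 7.84 and 7.81 in the knockdown clones, on the log2 scale of the deposited values. The groups did not overlap, and the knockdown mean was 41.2% of the control level (95% interval 32.6% to 52.0%), with an adjusted p of 0.111 in limma, a linear model with a shared estimate of variance. Of the 7 luminal prostate markers measured, KLK2, KLK3, KRT8, KRT18, SLC45A3 and HOXB13 were among the brightest 25% of genes, while TRPM8 was not. None of the 21 measured markers of basal, stromal, haematopoietic, endothelial or neuroendocrine cells was among the brightest 25%. The 3 basal keratins KRT5, KRT14 and KRT15 had log2 fold changes of 0.17, 0.18 and 0.34, with summed log2 values of 14.1 to 14.3 in the controls and 14.8 to 14.9 in the knockdown clones. Their part in the results below was not tested. Values of knockdown clone 1 were spread less widely over genes (SD 2.00) than those of the other clones (2.05 to 2.07). Knockdown clones 2 and 3 were the most alike pair of arrays, with an SD of their difference of 0.185.

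Knockdown against control asks which genes differ when MBD2 is reduced. All 10 genes had lower means in the knockdown clones, where 51.3% of all genes did. Their log2 fold changes, knockdown minus control, ran from -0.56 for CCNB1 to -0.26 for BUB1B with a median of -0.37, and the median over all 16704 genes was -0.0043. None of the 10 passed an adjusted p under 0.05 over all genes, nor did any other gene (0% of those tested). Their adjusted p lay between 0.229 for TTK and 0.686 for BUB1B. At an unadjusted p under 0.05, 8 of 10 were lower, all but AURKB and BUB1B, where 5.45% of all genes were lower at that threshold. In 6 of 10 (TTK, BUB1, CCNB1, PLK1, AURKA and NEK2) every knockdown clone lay below every control clone, as in 8.87% of all genes. An exact permutation test of 3 against 3 clones cannot give a two-sided p below 0.1. In an RNA pool of many cells, fewer cells in G2 and M phase and less RNA per cell cannot be told apart.

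The count of 8 depended on single clones and on the scaling. It was 5 without control clone 1 (4.74% of all genes lower at that threshold), 5 without knockdown clone 2 (4.07%), 5 without knockdown clone 3 (3.6%) and 10 without knockdown clone 1 (9.12%). Without control clone 2 or 3 it was 6 (3.91% and 4.17%), as it was after repeated quantile normalization (4.49%) and cyclic loess (4.67%). Under both of these, and with arrays centred on their medians, the count of genes whose groups did not overlap was 5 in place of 6 (7.25%, 7.3% and 9.29% of all genes). Without knockdown clone 1, CCNB1 also passed over all genes (adjusted p = 0.0498, limma), where 0.18% of all genes passed as lower, and all 10 genes had both remaining knockdown clones below every control (20.8% of all genes). With array weights, CCNB1, AURKA, TTK and PLK1 passed (1.15% of all genes as lower). These weights were lowest for knockdown clone 1 (0.252) and highest for knockdown clone 2 (3.43), 1 of the most alike pair. The fit without clone 1 rests on the most alike pair of clones, and with this pair averaged as 1 replicate beside clone 1 none of the 10 passed, as in the full fit, and 5 were lower at an unadjusted p under 0.05 (3.74% of all genes).

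**Figure D2:**
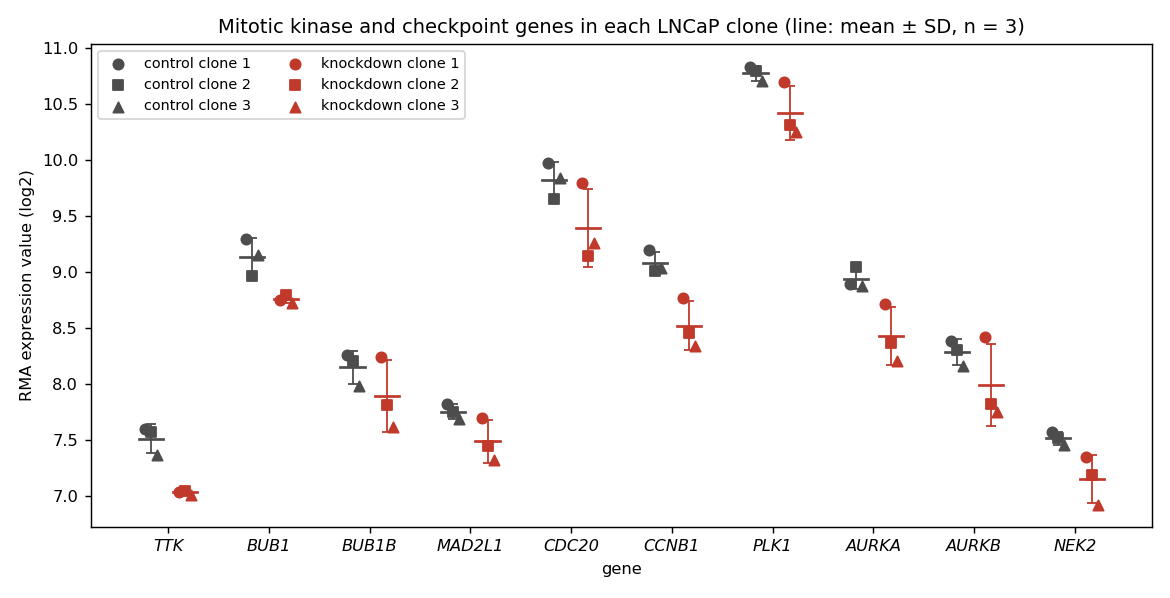
Deposited log2 values of the 10 genes (horizontal axis) in each of the 6 clones; grey is control, red is knockdown, and the symbol gives the clone number. Bars are means and whiskers SDs of 3 clones. The red points of TTK and BUB1 are close together below the grey ones, and the red circle (knockdown clone 1) is within the control range for BUB1B, MAD2L1 and CDC20 and above it for AURKB.

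Of the checkpoint kinases, TTK starts the signal at kinetochores by phosphorylating KNL1. TTK (feature 8120838) had log2 values of 7.60, 7.57 and 7.36 in control clones 1, 2 and 3 and of 7.04, 7.04 and 7.01 in the knockdown clones. All 3 knockdown clones lay within 0.04 of each other and below the lowest control. The log2 fold change was -0.48 (SE 0.09), or 71.7% of the control level with a 95% interval of 62.1% to 82.7%. Of the 10 genes TTK had the smallest p in limma (adjusted p = 0.229), at rank 53 of all genes. BUB1 is the kinase that docks on phosphorylated KNL1 and marks the inner centromere. BUB1 (feature 8054580) stood at 9.29, 8.96 and 9.15 in the controls and at 8.74, 8.79 and 8.72 in the knockdown clones. Here too the knockdown clones were closer to each other (SD 0.04) than the controls (SD 0.16), and the groups did not overlap. The log2 fold change was -0.38 (SE 0.10, adjusted p = 0.326).

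The checkpoint inhibitors of the anaphase-promoting complex differed from both kinases in knockdown clone 1. BUB1B, which encodes BUBR1, a part of the mitotic checkpoint complex, had 8.26, 8.20 and 7.98 in the controls and 8.24, 7.81 and 7.61 in knockdown clones 1, 2 and 3 (feature 7982663). Clone 1 lay among the controls and above their mean, while clones 2 and 3 lay below every control. The log2 fold change was -0.26 (SE 0.16, adjusted p = 0.686), which became -0.43 when knockdown clone 1 was left out and -0.12 when clone 3 was. MAD2L1 encodes MAD2, which changes shape at kinetochores to seize CDC20. Its values were 7.81, 7.75 and 7.69 in the controls and 7.69, 7.44 and 7.32 in the knockdown clones (feature 8102560). Clone 1 stood level with the lowest control, and the others lay below it, with a log2 fold change of -0.27 (SE 0.11, adjusted p = 0.512).

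CDC20 is the target of the checkpoint and the activator of the anaphase-promoting complex. It had 9.97, 9.65 and 9.84 in the controls and 9.79, 9.14 and 9.25 in the knockdown clones (feature 7900699). Knockdown clone 1 was inside the control range, at 98.0% of the control mean, while clones 2 and 3 were at 62.4% and 67.4%. This gave a log2 fold change of -0.43 (SE 0.18, adjusted p = 0.518). CCNB1 encodes cyclin B1, the partner that activates CDK1 at mitotic entry and a substrate of the anaphase-promoting complex activated by CDC20. Its values were 9.19, 9.01 and 9.04 in the controls and 8.76, 8.45 and 8.34 in the knockdown clones (feature 8105828). All knockdown clones lay below all controls, at 80.3%, 64.6% and 59.8% of the control mean. CCNB1 had the most negative estimate of the 10 genes, -0.56 (SE 0.12, adjusted p = 0.272), or 67.7% of control with a 95% interval of 55.5% to 82.7%.

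PLK1, the kinase of centrosome maturation and mitotic entry, had 10.83, 10.79 and 10.70 in the controls and 10.69, 10.31 and 10.25 in the knockdown clones (feature 7994109). The groups did not overlap, but clone 1 was only just below the lowest control. For PLK1 the log2 fold change was -0.36 (SE 0.13, adjusted p = 0.445). AURKA, which builds the spindle poles, stood at 8.89, 9.04 and 8.87 in the controls and at 8.71, 8.36 and 8.21 in the knockdown clones (feature 8067167). Its groups were apart, with clone 1 at 85.7% and clone 3 at 60.3% of the control mean, and its log2 fold change was -0.51 (SE 0.14, adjusted p = 0.338). NEK2 separates the centrosomes by loosening the linker between them. NEK2 (feature 7924096) had 7.57, 7.51 and 7.46 in the controls and 7.34, 7.18 and 6.92 in the knockdown clones. The groups did not overlap, and the log2 fold change was -0.37 (SE 0.12, adjusted p = 0.399).

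AURKB, the kinase of the chromosomal passenger complex, had 8.38, 8.30 and 8.16 in the controls and 8.41, 7.82 and 7.74 in the knockdown clones (feature 8012403). Knockdown clone 1 had the highest value of all 6 clones, and clones 2 and 3 the lowest. For AURKB the log2 fold change was -0.29 (SE 0.18, adjusted p = 0.672), which became -0.50 when knockdown clone 1 was left out and -0.17 when clone 3 was. AURKB and BUB1B were the genes among the 10 whose 95% intervals included no difference.

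**Figure D3:**
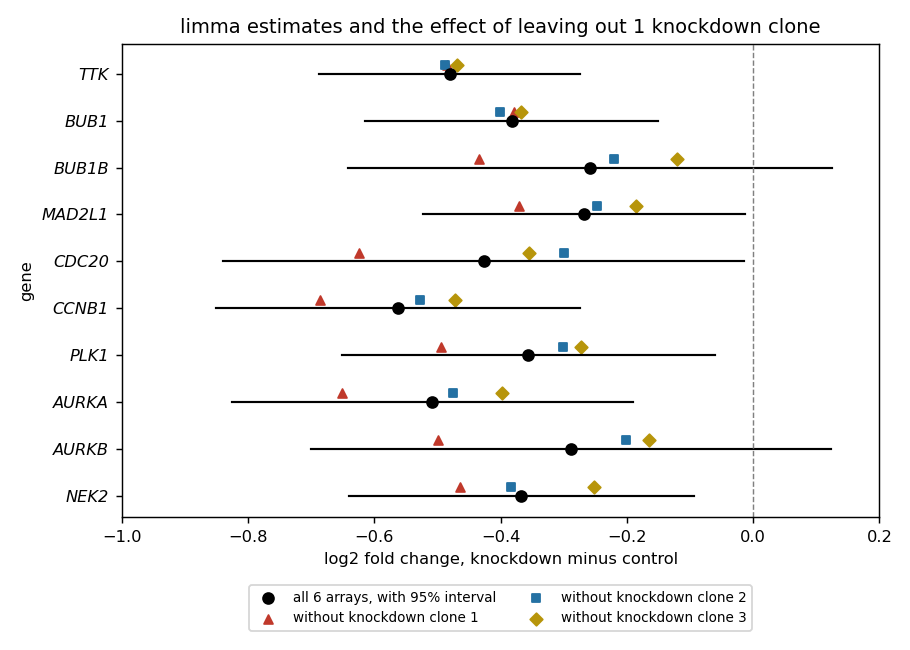
Log2 fold change, knockdown minus control, for the 10 genes (vertical axis), from limma. Black points and lines are estimates with 95% intervals from all 6 arrays, and coloured symbols are estimates with 1 knockdown clone left out. Intervals of 8 genes lie below 0, those of BUB1B and AURKB cross it, and TTK and BUB1 move least between the fits.

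Averaged over the 10 genes, knockdown clones 1, 2 and 3 differed from the control mean by -0.15, -0.46 and -0.56. The same average was 0.09, -0.02 and -0.07 for control clones 1, 2 and 3. The median over all genes was 0.03, -0.02 and -0.03 in the knockdown clones. In clones 2 and 3 all 10 genes were below every control, as were 31.2% and 34.3% of all genes. In clone 1, 6 of 10 were, against 27.9% of all genes. The MBD2 values of these clones were 7.68, 7.84 and 7.81, and a relation to the 10 genes was not tested. The 10 genes were not alike in clone 1. TTK and BUB1 lay 0.47 and 0.39 below the control mean there, 97.8% and 103% of the mean difference in clones 2 and 3. CCNB1, NEK2 and AURKA reached 46.1%, 36.9% and 34.2% of the difference in clones 2 and 3. MAD2L1, PLK1 and CDC20 reached 16.5%, 16.1% and 4.73%, and AURKB and BUB1B were 0.13 and 0.09 above the control mean. These differences between genes are descriptions of 1 clone and have no replicate check. Clone 3 was the lowest knockdown clone in 9 of 10 genes, all but CDC20. Control clone 1 was the highest control in 9 of 10, all but AURKA, and without it the median of the 10 log2 fold changes was -0.33.

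**Figure D4:**
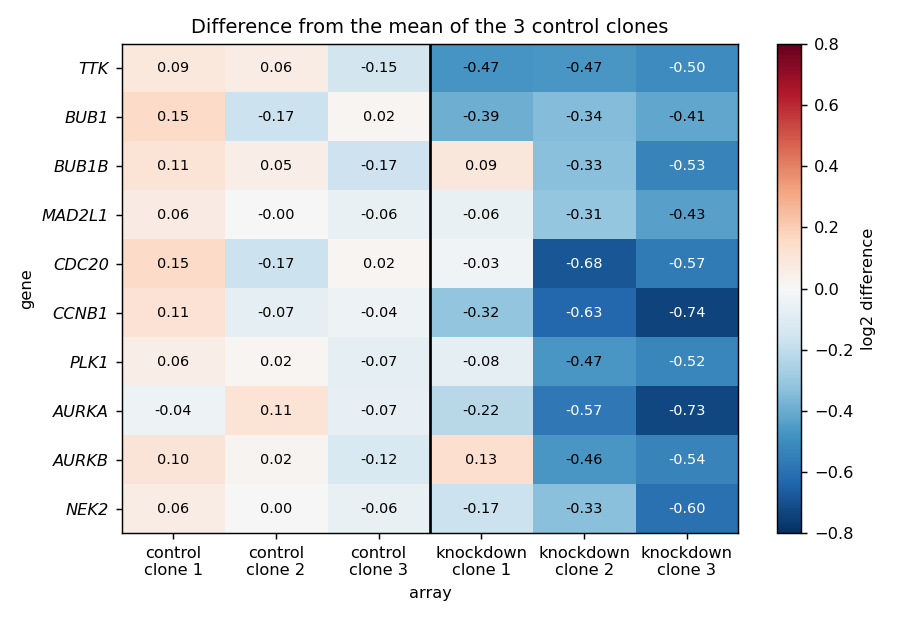
Log2 difference of each of the 10 genes (rows) from the mean of the 3 control clones in each array (columns); blue is lower and red is higher. The columns of knockdown clones 2 and 3 are blue in all rows, from -0.31 to -0.74, while knockdown clone 1 runs from -0.47 for TTK to 0.13 for AURKB.

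Other genes of the cell cycle were taken from 11 lists with 133 measured genes. The lists include 16 S phase genes, listed for comparison, and 9 cyclin-dependent kinase inhibitors and G1 cyclins. Of the 133 genes 117 had lower means in the knockdown clones, where 51.3% of all genes did, and the median log2 fold change was -0.24. None passed over all genes in either direction. At an unadjusted p under 0.05, 49 were lower and 0 higher, where 5.45% of all genes were lower and 3.93% higher. Without knockdown clone 1, the kinetochore gene ZWINT and the phosphatase gene CDC25C passed as lower. So did the thymidylate synthase gene TYMS of the S phase list. Each had an adjusted p of 0.0498 in limma. In that fit, which rests on the most alike pair of clones, 0.18% of all genes passed as lower.

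Of 14 spindle checkpoint partners, 11 had lower means and 9 were lower at an unadjusted p under 0.05, with a median of -0.35. KNL1, the kinetochore scaffold on which TTK and BUB1 act, had -0.42 (SE 0.11, adjusted p = 0.325), and SPDL1, which brings dynein to kinetochores, had -0.38. By its role, and after its value was seen, BUB3 was added: this partner of BUB1 and BUB1B had -0.28. Of 6 genes of the chromosomal passenger complex and associated factors 5 had lower means, with a median of -0.36. CDCA8, which encodes borealin, had -0.55 (SE 0.10, adjusted p = 0.229), and SGO1, which protects cohesin at centromeres, had -0.48. AURKC, a paralog of AURKB, had 0.07 and was likewise named after its value was seen. Of 9 activators and adaptors of AURKA and PLK1 8 had lower means and 7 were lower at an unadjusted p under 0.05, with a median of -0.46. In that list PLK4, the kinase of centriole duplication, had -0.65 (SE 0.11, adjusted p = 0.229), and TPX2, which activates AURKA on the spindle, had -0.46.

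Of 14 genes of CDK1 and cyclin regulation 12 had lower means and 10 were lower at an unadjusted p under 0.05, with a median of -0.42. CCNA2, which encodes cyclin A2, had -0.54 and MASTL, the kinase that restrains PP2A in mitosis, had -0.45, with an adjusted p of 0.229 in limma for both. CDK1, the kinase bound by cyclin B1 and likewise named after its value was seen, had -0.38. Of 18 subunits and partners of the anaphase-promoting complex 15 had lower means, but only 4 were lower at an unadjusted p under 0.05 and the median was -0.14. FBXO5, an inhibitor of the complex, had -0.50 and the subunit CDC26 had -0.29. Of 10 genes of separase, securin and cohesin all had lower means, 3 of them at an unadjusted p under 0.05, with a median of -0.22. There PTTG1, which encodes securin, had -0.41 and the cohesin subunit RAD21 had -0.26.

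Of 17 transcription factors and pocket proteins of the cell cycle 15 had lower means and 4 were lower at an unadjusted p under 0.05, with a median of -0.19. LIN9, a subunit of the MuvB core that binds CHR elements, had -0.41 (SE 0.09, adjusted p = 0.272), and the repressor E2F8 had -0.52. FOXM1, the activator of G2 and M phase genes that joins MuvB, had -0.47 and was named after its value was seen. Smaller medians were found for 11 mitotic phosphatases (-0.08), 9 other NEK and PLK family kinases (-0.06) and 9 cyclin-dependent kinase inhibitors and G1 cyclins (-0.05), with 1 gene in each lower at an unadjusted p under 0.05. These were CDC14B (-0.33), NEK11 (-0.44) and CCND1 (-0.39), which encodes cyclin D1. The next by p were PPP1CA (-0.20), NEK9 (-0.13) and CDKN1B (-0.22). All 16 S phase genes had lower means, 5 of them at an unadjusted p under 0.05, with a median of -0.29. The smallest p were those of the helicase gene MCM6 (-0.35) and of RRM2 (-0.56), which encodes a subunit of ribonucleotide reductase. Relative to the controls, the S phase genes averaged 0.0049 in knockdown clone 1, -0.43 in clone 2 and -0.55 in clone 3. The part of cell cycle phase in the values of the 10 genes was not tested.

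**Figure D5:**
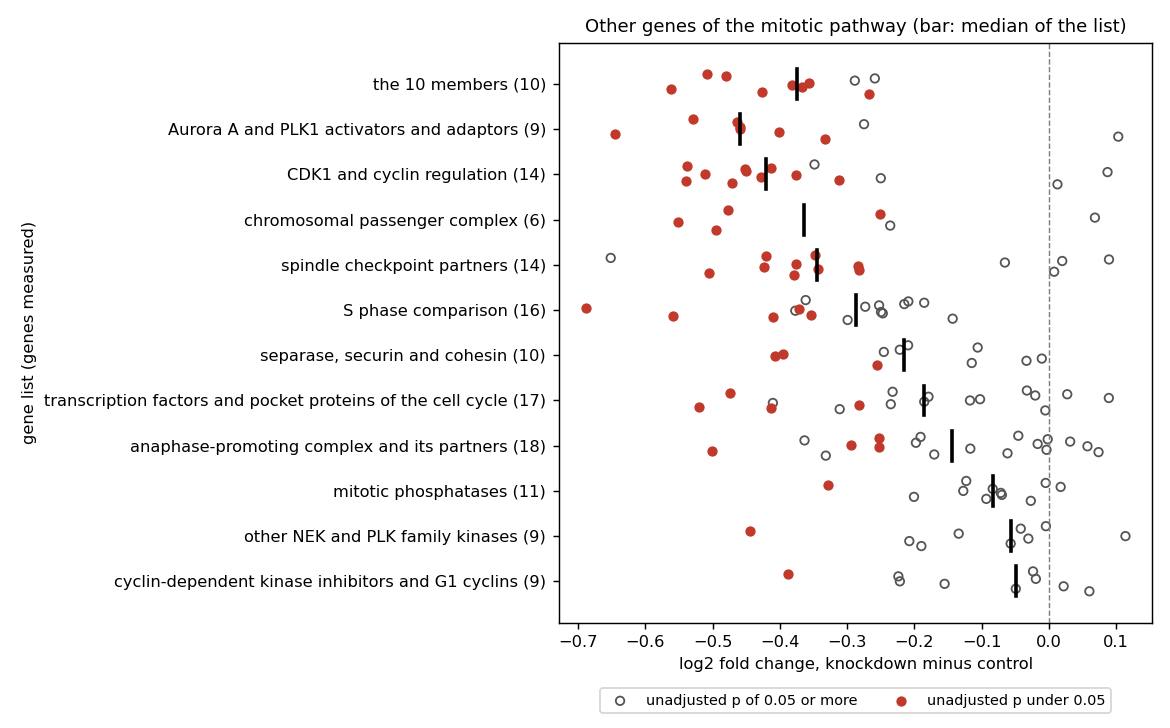
Log2 fold change, knockdown minus control (horizontal axis), of the 10 genes and of each gene in 11 lists (vertical axis, with the number measured). Filled red points have an unadjusted p under 0.05 in limma, open points do not, and black bars are medians. The medians run from -0.46 for the activators and adaptors of AURKA and PLK1 to -0.05 for the cyclin-dependent kinase inhibitors and G1 cyclins.

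Among genes outside the 10, the pattern over the 6 arrays most like their mean was that of KIF2C, a kinesin that takes microtubules apart at centromeres. Its values, centred on the control mean, differed from that mean pattern by 0.04 (root mean square, log2, over 6 arrays). CKS2, a small partner of CDK1, TRIP13, the ATPase that takes apart the checkpoint complex, RMI1, of the BLM helicase complex, and KNTC1, of the kinetochore RZZ complex, followed at 0.04 to 0.05. KIF2C had 8.13, 7.98 and 7.87 in the controls and 7.80, 7.57 and 7.43 in the knockdown clones. Of the 10 genes themselves, PLK1 was nearest to their mean pattern (0.04), and BUB1 (0.15) and TTK (0.14) were farthest from it. Each of the 10 is part of that mean, so these differences are not directly comparable with those of genes outside the 10.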

How the data were processed

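Arrays measured cytoplasmic RNA of 6 LNCaP clones, and groups were taken from the sample titles. The deposited table holds log2 values per feature made by the authors with RMA, per the submitters' processing notes; the log2 scale was taken from the range of values, and no software version is given in the sources used here. Of 19712 features 17334 had 1 gene symbol, and for each gene its brightest feature by mean was used, giving 16704 genes. The values were not normalized again. Knockdown was compared with control by limma 3.58.1 (lmFit and eBayes, no trend, no covariates) in R 4.3.3, with Benjamini-Hochberg adjustment over all genes, and the fit was tested on simulated data. Percent of control is 2 to the power of the log2 fold change. Dim genes were not filtered out, and the number of arrays limits the precision.

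The members and lists were chosen with earlier results of these data known. All members were named, and of each list the 2 genes with the smallest unadjusted p. The 5 genes most alike were ranked by root mean square difference. Alternatives were other scalings, a filter on the dimmest 30% of genes, eBayes with trend, array weights, a replicate block, averaged features, clones 2 and 3 averaged, all features, and each array left out. Tables and figures were made in Python 3.11.15. Promoter windows came from RefSeq (GRCh38.p14).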

Additional observations from a re-analysis of the deposited data

How the results depend on the processing

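All 10 genes kept a negative log2 fold change under each of the 16 alternatives. The dim-gene filter, eBayes with trend, the replicate block, averaged features and all features leave these estimates unchanged by construction. Those settings therefore say nothing about the sign. Array weights (0.252 for knockdown clone 1, 3.43 for clone 2) called 4 of the 10 genes (CCNB1, AURKA, TTK and PLK1, adjusted p 0.0263 to 0.0399 in limma) and 21 pathway genes, all lower, where 1.15% of all genes were called lower. With knockdown clones 2 and 3 averaged, 5 of the 10 were lower at an unadjusted p under 0.05 (3.74% of all genes), and the estimates of BUB1B and AURKB were -0.17 and -0.18. The cause was not tested. In fits that left out 1 array, 0 to 1 of the 10 and 0 to 3 pathway genes passed an adjusted p of 0.05. Genes of the 10 and of the lists passed only without knockdown clone 1, where 0.18% of all genes passed as lower. Of the 10, 5 to 10 were lower at an unadjusted p under 0.05 (3.6% to 9.12% of all genes). Groups did not overlap in 10 genes without knockdown clone 1 (20.8% of all genes) and in 6 or 7 otherwise. For those other fits the share of all genes was not computed, and leaving out an array can only raise such counts. The median of the 10 log2 fold changes ran from -0.49 to -0.31. After repeated quantile normalization and after cyclic loess this median was -0.33. Under both, 6 genes were lower at an unadjusted p under 0.05 (4.49% and 4.67% of all genes). The groups of 5 genes did not overlap (7.25% and 7.3% of all genes).

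The replicate numbers name clones, and no label pairs them. Deviations of same-numbered control and knockdown clones from their group means correlated at -0.03, -0.19 and 0.17 across genes. With 3 arrays in each group, centred on the group mean, such correlations cannot decide whether the clones were paired. With the replicate number as a block, 0 of the 10 genes passed and 8 were lower at an unadjusted p under 0.05. The share of all genes lower in that fit was not computed. In this balanced design a block cannot change the log2 fold changes, so the median stayed at -0.37. Only control clone 3 correlated best with the knockdown clone of its own number. Control clone 1 correlated best with knockdown clone 2 (0.09), and control clone 2 with knockdown clone 1 (0.22). The number of arrays limits the precision.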
